A study of Apis mellifera with 10 samples.

Results

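The very long genes of the honey bee are the bee genes whose annotated span, from the first to the last base with introns included, is at least 200 kb. The deposited count tables list 145 such genes among 12332 bee genes. Of these, 9 carry the symbols of other named families (Nrx-1, Glurb, NLG-3, NLG-4, NLG-5, 5-ht7, nAChRa4, nAChRa6 and nAChRa7) and were left out, which leaves 136 genes, 1.10% of bee genes. Their summed span of 45.6 Mb is 24.7% of the summed span of all bee genes. The 136 comprise 128 protein-coding genes and 8 long noncoding RNAs, and 134 of them have only an LOC number, to which the sources used here attach no description. The exceptions are Foxp, a forkhead transcription factor, and Mad, which in Drosophila is the transcription factor that carries BMP signals to the nucleus.

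Most of the span of such a gene is intron. RNA polymerase copies the introns together with the exons, and splicing then removes them, so reads inside introns come largely from transcripts that are not yet spliced. In animals, genes with very long introns are often active in the nervous system, and the insect antenna is rich in sensory neurons.

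RNA was measured in antennae of adult Apis mellifera that were raised in the laboratory and dissected no later than 24 hours after emergence. As embryos the bees had received either buffer alone (control, 5 libraries, replicates 3, 4, 5, 6 and 7) or a CRISPR ribonucleoprotein against orco (orco_KO, 5 libraries, replicates 3, 5, 9, 11 and 12). The gene orco, with the symbol Or2 in the annotation, encodes the coreceptor that odorant receptors need to form an ion channel. The comparison asks how antennal RNA differs when orco has been disrupted during development. The controls received no ribonucleoprotein, so an effect of the injected complex other than loss of orco cannot be told apart from loss of orco. The labels do not give the strain, the allele carried by each bee, or whether each library is a separate bee, so p-values measure the spread between libraries, part of which may be technical.

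Bee gene counts per library ranged from 9497211 to 23453690 in control and from 8577416 to 18308425 in orco_KO. Or2 was lower in every orco_KO library than in any control, at 22.9 ± 9.33 against 382 ± 82.6 CPM (CPM, reads relative to a library size scaled by TMM; mean ± SD, n = 5 in each group). The first principal component held 37.4% of the variance, and on it control replicates 6 and 7 lay furthest from orco_KO; control replicate 3 was the extreme library of the second. Of 7 neuron markers, 6 fell in orco_KO (Cac, Camkii, Nrx-1, Para, Syt1 and brp), and the summed level of the list went from 7640–18377 CPM in control to 4340–6429 CPM in orco_KO. The glial marker Eaat-2 fell from 6.24–9.14 to 0.232–1.60 CPM. Summed muscle markers (5 of 8 listed symbols were matched) spanned 1963–3961 CPM in control and 2606–6803 CPM in orco_KO, with TpnT higher and Argk lower. Eye markers summed to at most 13.3 CPM in any library, and of the 2 that were tested Blop was higher in orco_KO. Fat body markers (4 of 6 listed symbols were matched) summed to at most 98.2 CPM. Of these, 2 were tested and neither passed, with a median log2 fold change of 1.48. Head gland markers summed to at most 0.770 CPM in any library, with Pla2 at 0 throughout.

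All 136 very long genes passed the filter on low counts. Because reads are counted over the whole span, these genes collect many of them: the median control level was 512 CPM, against 13.8 CPM over all 9222 tested bee genes. Per length the order turned around, with a median control level of 1.55 CPM per kb of span in the very long genes and 2.94 CPM per kb over all tested genes, and 40 of the 136 lay above that second value. The per-length level ran from 0.00825 CPM per kb in LOC102656349 to 36.7 CPM per kb in LOC551259, a 4456-fold range. Counting error is small for nearly all of them, since 131 of the 136 had at least 100 reads in every library and the smallest count of any gene in any library was 5. A total of 18 genes made up 50% of the control CPM of the 136.

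**Figure D1:**
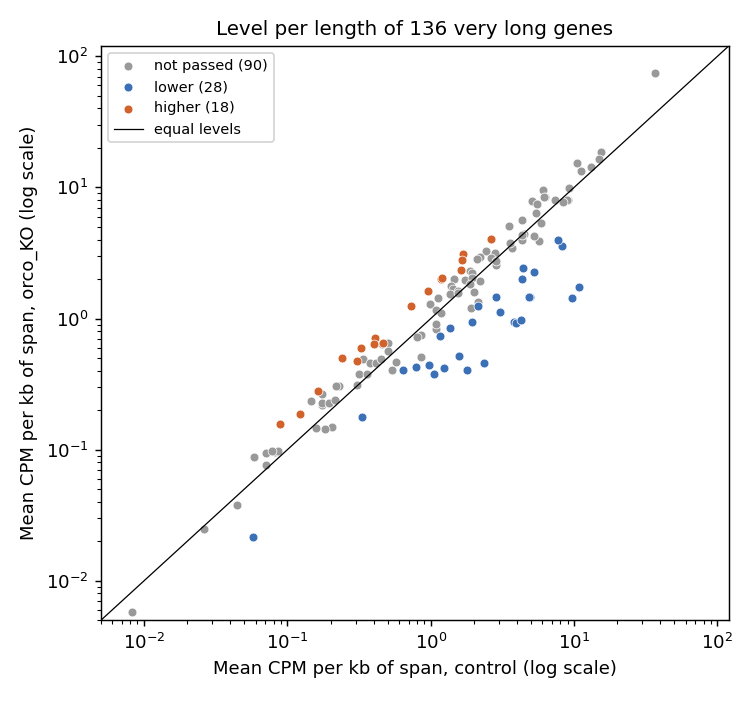
Mean CPM per kb of span in control (horizontal, log scale) against orco_KO (vertical, log scale), 1 point per very long gene, with a line at equal levels. The 28 genes that passed the test as lower lie below the line and the 18 that passed as higher above it, and LOC551259 stands alone at the top right at 36.7 CPM per kb in control.

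In orco_KO antennae, 28 of the 136 very long genes fell (20.6%), 18 rose (13.2%) and 90 passed in neither direction, by edgeR's quasi-likelihood test with the Benjamini-Hochberg adjustment over all 9222 tested genes at a threshold of 0.05. Over all tested genes the shares were 7.98% lower and 4.57% higher. The falls were the deeper of the 2 directions: 19 genes fell at least 2-fold (5.55% of all tested genes did) and 7 at least 4-fold (1.72%), whereas 1 rose at least 2-fold (1.34%). The 28 that fell centred on a log2 fold change of -1.32 (median) and the 18 that rose on 0.77, close to the -1.36 and 0.85 of all genes that passed in each direction. Over all 136 the median was 0.12, with quartiles of -0.41 and 0.43, against -0.06 over all tested genes. The antenna was sequenced in bulk, so fewer cells of a type and less RNA per cell cannot be told apart, and the part that the lower neuron markers have in these values was not tested.

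The number that rose depended on the processing more than the number that fell. With upper-quartile scaling 28 fell and 32 rose; lower genes were then 46.7% of the calls in place of 60.9%, through more rises and the same number of falls. With DESeq2 29 fell and 35 rose (45.3% lower). Without control replicate 3 there were 27 lower and 30 higher, without control replicate 6 there were 28 and 10, and without both control replicates 6 and 7 there were 33 and 9. Higher calls over all tested genes moved in the same directions, from 4.57% to 6.51% with upper-quartile scaling and 8.46% with DESeq2, and to 7.28%, 2.701% and 2.18% when control 3, control 6, or both 6 and 7 were left out. Lower calls over all tested genes stayed between 7.08% and 8.94% in these 5 settings. None of the 46 called genes changed sign under any alternative tried. Of the 28 that fell, 23 passed in every fit that left out 1 library and without both of those controls. Of the 18 that rose, 9 did. The same count was not made over all tested genes. With 1 library left out, calls over all tested genes ranged from 589 to 791 lower and from 250 to 684 higher.

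**Figure D2:**
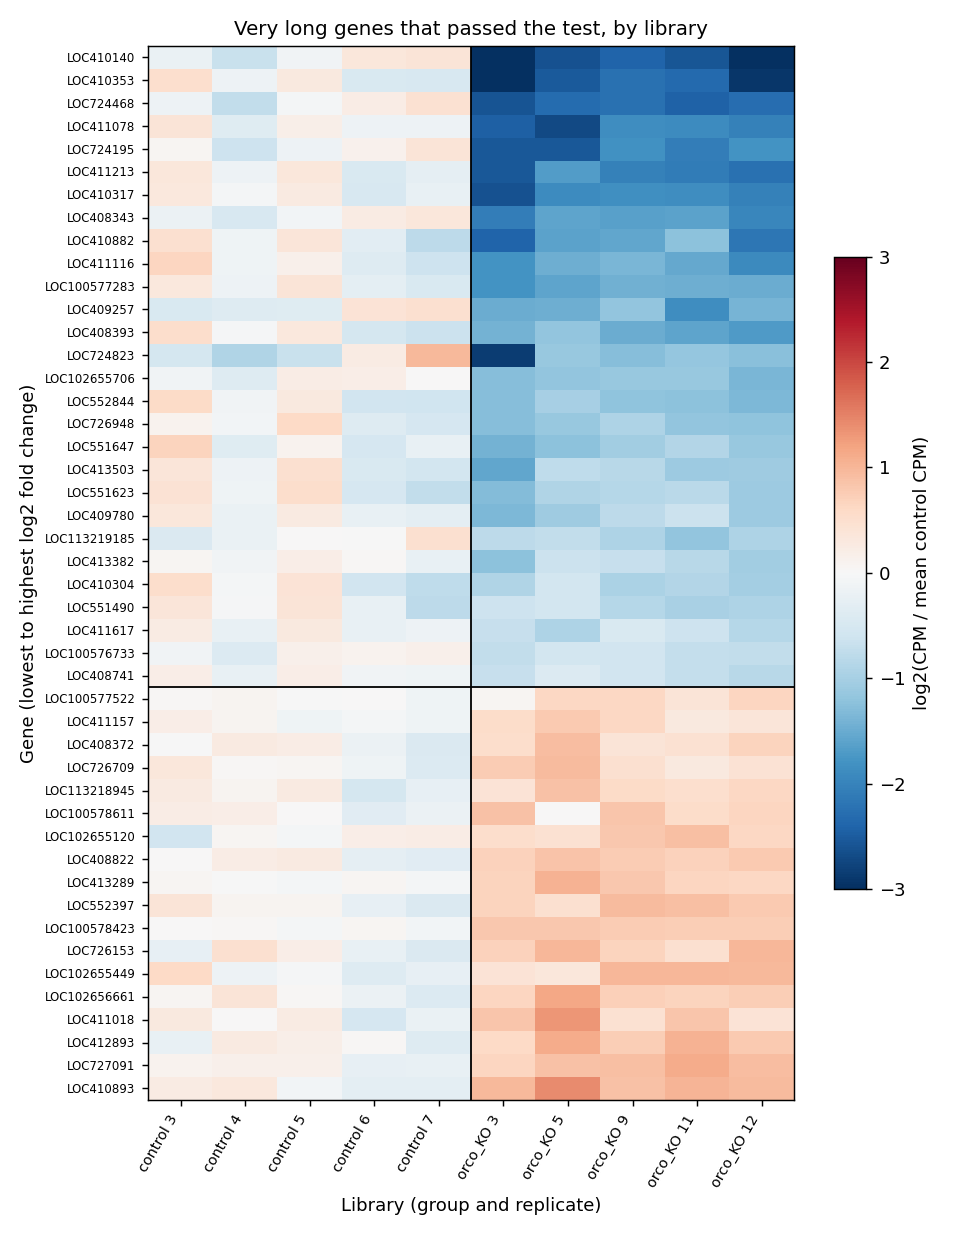
Each row is 1 of the 46 very long genes that passed the test and each column 1 library; colour is log2 of the CPM over the gene's mean control CPM. The 28 lower genes are above the horizontal line, where the orco_KO side is blue throughout, and the 18 higher genes below it show paler changes.

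The groups did not overlap at all in 45 of the 136 genes (33.1%; 11.2% of all tested genes). In 26 of them every orco_KO library lay below every control (background 7.45%), and in 19 every orco_KO library lay above (background 3.76%).

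The deepest falls are given here by library, in CPM, with controls in the order of replicates 3, 4, 5, 6 and 7 and orco_KO in the order 3, 5, 9, 11 and 12. LOC410140 (linkage group 7, positions 3274454 to 3493372, forward strand; Amel_HAv3.1) gave 1843, 1326, 1974, 2684 and 2761 CPM in control and 217, 347, 402, 357 and 235 CPM in orco_KO. The highest orco_KO library thus stayed well below the lowest control, and controls 6 and 7 were the highest of all. It fell 6.79-fold (log2 fold change -2.76, SE 0.25, adjusted p = 8.43e-06), the largest fall among the 136 with all libraries. Without both controls 6 and 7 its log2 fold change was -2.45, and LOC410353 then fell further, at -2.88; the order also turned without control replicate 6 or 7 alone.

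LOC410353 (linkage group 12, positions 46221 to 576852, forward strand), a gene of 530632 bases, gave 8193, 5172, 7056, 4227 and 4129.5 CPM in control and 488, 1006, 1214, 1143 and 759.8 CPM in orco_KO. Here controls 6 and 7 were the lowest controls, the reverse of LOC410140, and all orco_KO libraries still lay below them. The fall was 6.24-fold (log2 fold change -2.64, SE 0.29, adjusted p = 3.83e-05). By length it was the most abundant of the genes that fell, going from 10.8 to 1.74 CPM per kb.

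LOC724468 (linkage group 16, positions 2060318 to 2398761, reverse strand) had the smallest p among the 136. Its controls held 722, 475, 765, 936 and 1086 CPM and its orco_KO libraries 133, 161, 169, 148 and 165 CPM. The orco_KO values lay within a narrow band, while the controls spread more than 2-fold, with replicates 6 and 7 on top. The fall was 5.14-fold (log2 fold change -2.36, SE 0.21, adjusted p = 6.89e-06).

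LOC411078 (linkage group 5, positions 5937252 to 6183773, reverse strand) gave 576, 344, 499, 398 and 402 CPM in control and 81.1, 68.3, 121, 121 and 109 CPM in orco_KO. It fell 4.43-fold (SE 0.21 on the log2 scale, adjusted p = 1.17e-05), and controls 6 and 7 lay among the other controls. LOC724195 (linkage group 1, positions 20697637 to 21007211, reverse strand) gave 1379.9, 852, 1194, 1435 and 1738 CPM in control and 225, 226, 372, 313 and 379 CPM in orco_KO, a fall of 4.35-fold (SE 0.23 on the log2 scale, adjusted p = 3.23e-05). Its orco_KO replicates 3 and 5 were the lowest, as they were in LOC411078.

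LOC411213 and LOC410317 had closely similar profiles. LOC411213 (linkage group 7, positions 11335588 to 11563898, reverse strand) gave 1132, 802, 1133, 650.0 and 745 CPM in control and 154, 278, 219, 208 and 189 CPM in orco_KO, 4.26-fold lower (SE 0.21 on the log2 scale, adjusted p = 1.90e-05). LOC410317 (linkage group 11, positions 11450640 to 11678693, reverse strand) gave 1078, 836, 1041, 624 and 743 CPM in control and 141, 234, 242, 239 and 211 CPM in orco_KO, 4.05-fold lower (SE 0.21 on the log2 scale, adjusted p = 1.90e-05). In both, controls 3 and 5 were the highest, control 6 was the lowest control, and no orco_KO library reached it.

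**Figure D3:**
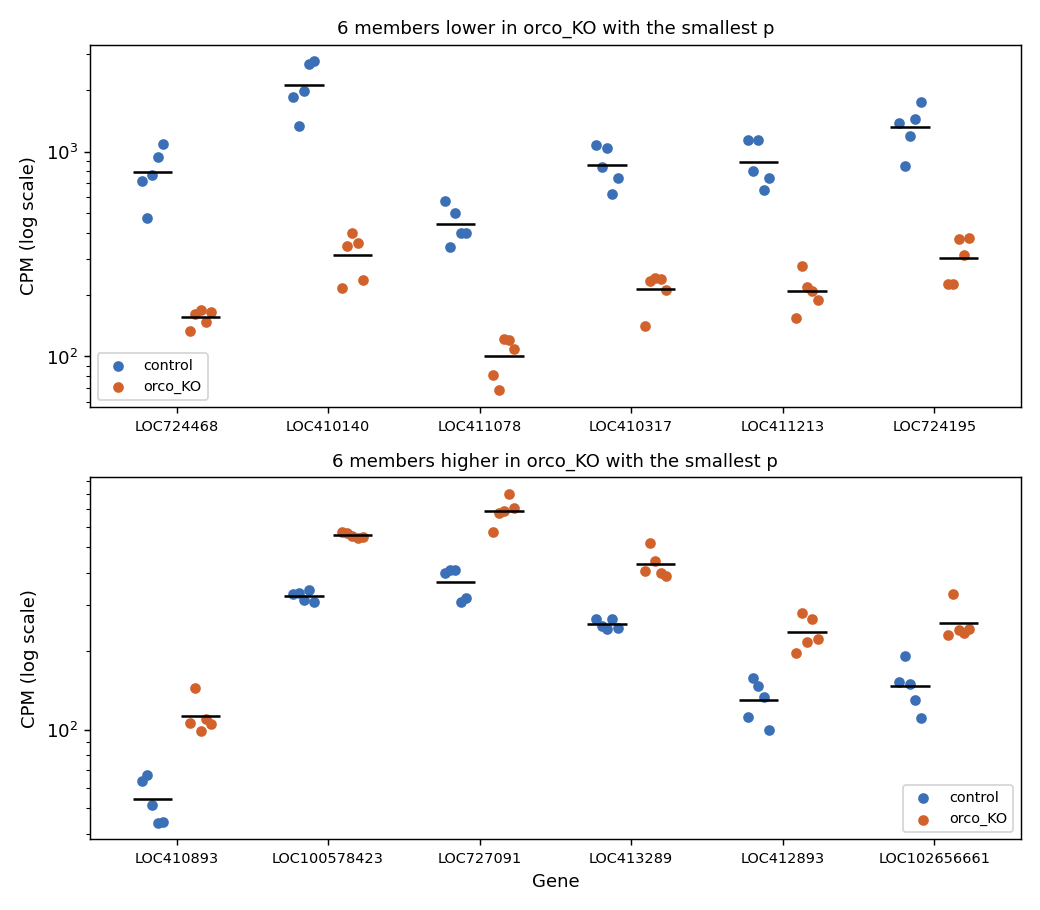
CPM (vertical, log scale) in each library for the 6 genes with the smallest p among those that fell (upper panel) and among those that rose (lower panel); points are libraries and bars are group means. The groups are apart in all 12 genes, by wider gaps in the upper panel, where LOC410140 goes from 2117 to 312 CPM.

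Of the 10 genes with the smallest p among those that fell, the other 3 lost less. LOC408343 (linkage group 11, positions 2936166 to 3249803, forward strand) went from 1534 ± 342 to 454 ± 68.7 CPM (mean ± SD, n = 5), 3.38-fold lower with adjusted p = 3.67e-05. LOC100577283 (linkage group 8, positions 10551206 to 10951318, forward strand) went from 495 ± 127 to 169 ± 15.6 CPM, 2.92-fold lower with adjusted p = 6.62e-05. LOC102655706 (linkage group 2, positions 3035118 to 3462535, reverse strand), which has a single annotated transcript, went from 2235 ± 370.2 to 961 ± 69.1 CPM, 2.33-fold lower with adjusted p = 0.000212. In all 3 the groups did not overlap.

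The other 18 genes that fell had log2 fold changes from -1.73 (LOC410882) to -0.64 (LOC408741). Their mean levels in control ran from 18.3 CPM in LOC724823 to 3563 CPM in LOC409780, so low and high counts were both among them. In LOC551490 and LOC410304 the groups overlapped although they passed the test. LOC410304 lost its call in 7 of the 10 fits without 1 library (highest adjusted p 0.105) and LOC551490 in 5 (0.0852). LOC724823 lost it without both control replicates 6 and 7, with a log2 fold change of -0.71 in place of -1.42 and adjusted p = 0.205.

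The genes that rose were mostly of lower level, with a median control level of 184 CPM against 830 CPM in those that fell. LOC410893 (linkage group 2, positions 5731860 to 5956116, forward strand) gave 63.7, 66.9, 51.4, 43.9 and 44.4 CPM in control and 107, 144, 98.8, 110.0 and 105 CPM in orco_KO. Every orco_KO library lay above every control, and orco_KO replicate 5 stood highest. It rose 2.09-fold (log2 fold change 1.06, SE 0.17, adjusted p = 0.000715), the only one past 2-fold.

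LOC100578423 (linkage group 13, positions 9136195 to 9476834, reverse strand) was the steadiest of the genes that rose. Its controls held 330.4, 334, 315, 342 and 307 CPM and its orco_KO libraries 575, 567, 555, 542 and 547 CPM. Both groups varied little between libraries, controls 6 and 7 lay at the 2 ends of the control range, and the groups stayed apart. The rise was 1.71-fold (log2 fold change 0.77, SE 0.12, adjusted p = 0.000797).

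LOC727091 (linkage group 7, positions 5302778 to 5523561, forward strand) gave 399, 408, 409, 309.7 and 319 CPM in control and 573, 674, 691, 802 and 704 CPM in orco_KO, a rise of 1.87-fold (SE 0.15 on the log2 scale, adjusted p = 0.00130). Its controls 6 and 7 were its lowest libraries. LOC413289 (linkage group 3, positions 10834908 to 11049222, reverse strand) gave 265, 250.4, 244, 264 and 245 CPM in control and 404, 521, 444, 399 and 388 CPM in orco_KO, a rise of 1.70-fold (SE 0.14 on the log2 scale, adjusted p = 0.00172). In LOC413289 the 5 controls lay close together and orco_KO replicate 5 was the highest.

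LOC408822 (linkage group 5, positions 1052064 to 1750482, forward strand) is the fourth longest gene of the annotation and the longest that passed the test, at 698419 bases. It gave 839, 975, 1015, 699 and 664 CPM in control and 1353, 1508, 1416, 1359 and 1435 CPM in orco_KO. The orco_KO libraries clustered tightly above all controls, of which 6 and 7 were the lowest. It rose 1.69-fold (log2 fold change 0.75, SE 0.16, adjusted p = 0.00737).

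The remaining 5 of the 10 genes with the smallest p among those that rose changed by similar amounts. LOC412893 (linkage group 11, positions 8367553 to 8762658, reverse strand) went from 129.7 ± 23.7 to 237 ± 35.5 CPM (mean ± SD, n = 5; adjusted p = 0.00302). LOC102656661 (linkage group 6, positions 13690589 to 14052771, forward strand) went from 147 ± 29.8 to 257 ± 41.9 CPM (adjusted p = 0.00654). LOC552397 (linkage group 12, positions 9699271 to 9931975, reverse strand) went from 384 ± 83.3 to 656 ± 84.7 CPM (adjusted p = 0.0101). These 3 rose without any overlap of the groups. LOC102655120 (linkage group 9, positions 531931 to 791370, reverse strand) went from 104 ± 21.2 to 166 ± 21.7 CPM (adjusted p = 0.0184). Its groups did not overlap either, and its controls 6 and 7 were its highest controls. LOC726153 (linkage group 14, positions 6033475 to 6334772, reverse strand) went from 220 ± 60.03 to 378 ± 57.6 CPM (adjusted p = 0.0158). In LOC726153 the highest control just exceeded the lowest orco_KO library, and without both controls 6 and 7 its adjusted p was 0.0792.

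The other 8 that rose had log2 fold changes from 0.48 (LOC100577522) to 0.81 (LOC411018), and all 8 lost their call without both control replicates 6 and 7. Among the 8 long noncoding RNAs, LOC113218945 rose, from 24.6 ± 5.58 to 37.5 ± 4.82 CPM (adjusted p = 0.0378), and none fell. It lost its call in 8 of the 10 fits without 1 library. The other 7 did not pass. Of the 8, 7 had positive values, with a median log2 fold change of 0.57, beside 0.31 over all tested long noncoding RNAs.

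Both genes with a symbol were among the 90 that did not pass. Foxp (linkage group 13, positions 5292251 to 5526825, reverse strand) has 30 annotated transcripts, the most of any very long gene together with LOC551259. It gave 1831, 1261, 1652, 1153 and 802 CPM in control and 936, 1235, 727, 971 and 688 CPM in orco_KO. The orco_KO values lay in and below the lower part of the control range, with a log2 fold change of -0.56 (SE 0.24, adjusted p = 0.152). Mad (linkage group 15, positions 951021 to 1360467, reverse strand) was the second most abundant per length, at 15.4 CPM per kb in control. It gave 8473, 6653, 8419.9, 3825 and 4078 CPM in control and 7148, 9428, 6783, 7307 and 7286 CPM in orco_KO. Controls 6 and 7 were far below all other libraries, and the other 3 controls overlapped the orco_KO range. Its log2 fold change was 0.27 (SE 0.25, adjusted p = 0.551), and -0.05 without both of those controls.

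LOC551259 (linkage group 7, positions 8852924 to 9058966, forward strand), the most abundant per length, gave 9684, 9755, 9677, 4967 and 3774 CPM in control and 18565, 24002, 9492, 11199.5 and 14066 CPM in orco_KO. The groups overlapped only in that orco_KO replicate 9 lay just below controls 3, 4 and 5, while orco_KO replicates 3 and 5 were the highest. Its log2 fold change was 1.03 (SE 0.33, adjusted p = 0.0594). It passed without control replicate 3 (adjusted p = 0.0407), without orco_KO replicate 9 (0.0470), with DESeq2 (0.00884), with limma-voom (0.0458) and with upper-quartile scaling (0.0253). After Mad, the next 3 by level per length were LOC725189, LOC408944 and LOC408801, at 14.8, 13.2 and 11.2 CPM per kb in control and 16.6, 14.3 and 13.4 CPM per kb in orco_KO. Their adjusted p-values were 0.745, 0.804 and 0.489.

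The longest gene of the annotation is LOC724287 (linkage group 11, positions 5292072 to 6161805, reverse strand), at 869734 bases. It gave 127, 155, 193, 165 and 151 CPM in control and 97.2, 95.2, 161, 135 and 132 CPM in orco_KO, with overlapping groups and a log2 fold change of -0.35 (SE 0.18, adjusted p = 0.225). LOC725329, of 788097 bases, gave 169, 175, 181, 194 and 184 CPM in control and 216, 238, 269, 255 and 218 CPM in orco_KO. Every orco_KO library of LOC725329 lay above every control, but its adjusted p was 0.0530 at a log2 fold change of 0.41 (SE 0.13). It passed with DESeq2 (0.000987), RLE scaling (0.0354), upper-quartile scaling (0.0378) and limma-voom (0.0482). Also among the 5 longest, LOC551123 (6164 ± 1953 and 5732 ± 412 CPM) and LOC411155 (235 ± 20.2 and 247 ± 41.0 CPM), had adjusted p-values of 0.820 and 0.817.

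The genes with values nearest to equal were LOC410785, LOC550708 and LOC724344, with log2 fold changes of 0.02 (SE 0.16), 0.02 (SE 0.17) and -0.02 (SE 0.17). Besides LOC725329, 5 genes that did not pass had every orco_KO library above every control: LOC411158, LOC724333, LOC410706, LOC412801 and LOC725885. Their log2 fold changes ran from 0.23 to 0.46. No gene that missed the threshold had every orco_KO library below every control.

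Control replicates 6 and 7 were a common feature of these genes. Both lay below the other 3 controls in 80 of the 136 (58.8%; 24.8% of all tested genes) and both above in 19 (14.0%; 26.7%). The median gene, taken as log2 of CPM over its control mean, was at -0.22 and -0.24 in these 2 libraries, at 0.23 in control replicate 3, 0.16 in control replicate 5 and -0.05 in control replicate 4. The orco_KO libraries lay between -0.07 and 0.15, inside the control range. The genes that fell were of 3 kinds in this respect: in 14 both libraries were the lowest controls (among them LOC410353, LOC411213 and LOC410317), in 6 the highest (LOC724468, LOC410140, LOC724195, LOC408343, LOC409257 and LOC724823), and in 8 neither. Of the 18 that rose, 11 had both as the lowest controls and 1 as the highest. Without both libraries the median log2 fold change of the 136 was -0.06.

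Reads on the very long genes made up 13.1% ± 0.396 of all bee gene counts in control and 12.6% ± 0.988 in orco_KO (mean ± SD, n = 5), with overlapping ranges of 12.8–13.8% and 11.7–14.0%. Within this share the genes that fell took 3.28% ± 0.313 in control and 1.12% ± 0.208 in orco_KO, and those that rose took 0.551% ± 0.0645 and 0.852% ± 0.0573. The 90 others took 9.23% ± 0.421 and 10.6% ± 0.739, and here no orco_KO library was below the highest control (9.77% against a lowest orco_KO value of 9.98%). Among these 90 is LOC551259, at 7572 ± 2952 CPM in control and 15465 ± 5881 CPM in orco_KO. This gene alone adds much to the difference, so the separation is not read as a rise common to the 90. The split into these 3 sets rests on the same test, so their shares are a description. The 5 most abundant very long genes of each library held 19.3–25.2% of the reads on the 136 in control and 26.4–34.3% in orco_KO. This share was highest in orco_KO replicates 3 (32.5%) and 5 (34.3%), where LOC551259, which did not pass the test, stood at 18565 and 24002 CPM.

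Spans within the set ran from 201838 to 869734 bases, with a median of 311 kb. Of the 36 genes of at least 400 kb, 9 fell and 2 rose; of the 65 genes under 300 kb, 12 fell and 11 rose. Across the 136 genes, which are not independent replicates, Spearman's rho between span and log2 fold change was -0.15, against 0.16 across all 9222 tested genes, and between the number of annotated transcripts and log2 fold change -0.03. The median number of annotated transcripts was 5, against 2 over all tested genes, and 15 of the 136 had a single one. The set holds 5.88% long noncoding RNAs, against 14.9% of all bee genes, and 64 genes on the forward and 72 on the reverse strand. Linkage group 1 holds 23 of them, and as a share of genes they are most frequent on linkage groups 12 (2.38%) and 7 (2.22%). Genes that fell lay on all linkage groups but 4, 6 and 10.

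**Figure D4:**
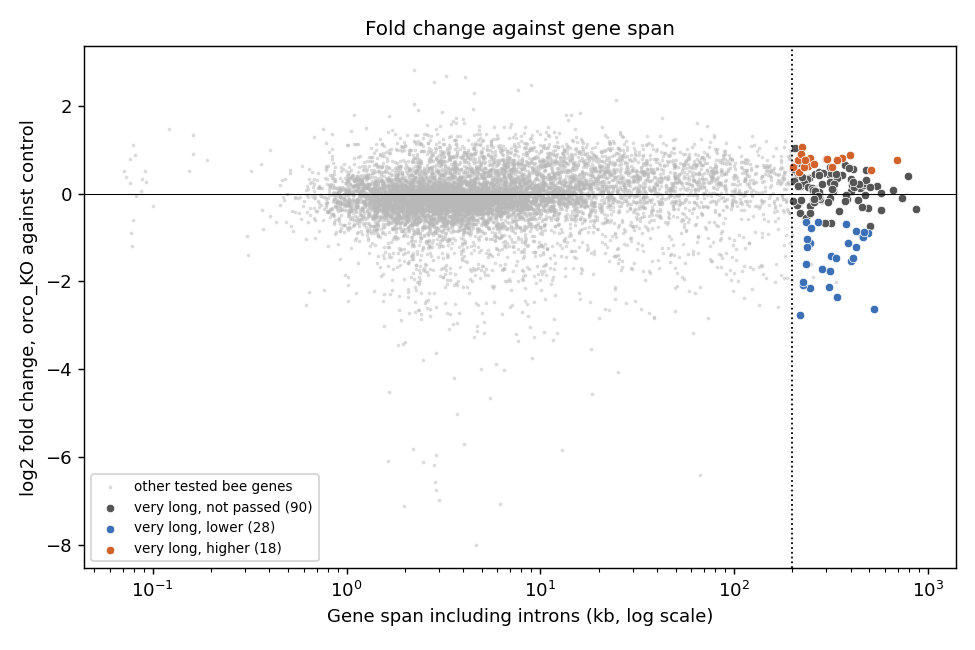
Log2 fold change of orco_KO against control (vertical) against gene span in kb (horizontal, log scale) for all 9222 tested genes; a dotted line marks 200 kb and coloured points the very long genes that passed the test. The very long genes lie between -2.76 and 1.06, with falls that reach further from 0 than rises.

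Set beside shorter genes, the share that passed rose with span. Of the 4896 tested genes under 5 kb, 5.43% were lower and 1.47% higher; of the 397 genes from 50 to 100 kb, 13.6% and 15.6%; of the 248 genes from 100 to 200 kb, 15.3% and 16.5%. All 145 genes of at least 200 kb, the left-out families included, gave 21.4% and 12.4%. Longer genes also had more reads (rho between span and average log2 CPM 0.54 over all tested genes), which makes a difference easier to detect. Among genes in the 10th to 90th percentile of the very long genes' average log2 CPM (5.39 to 11.2), 25 of 108 very long genes fell (23.1%) and 16 rose (14.8%). The 2480 genes under 200 kb in the same band gave 12.1% lower and 9.44% higher, and those from 100 to 200 kb gave 19.0% and 18.5%. Read levels still differed within the band. Median average log2 CPM there was 6.19 under 5 kb, 8.27 from 100 to 200 kb and 8.84 at 200 kb or more. No test was made of these differences between classes.

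**Figure D5:**
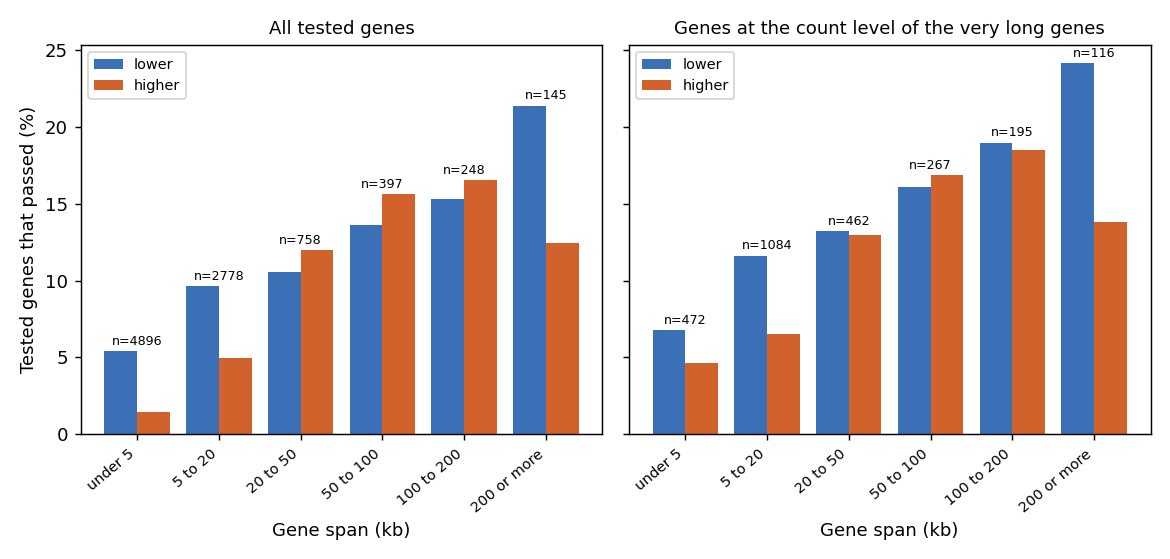
Percentage of tested genes that passed as lower (blue) or higher (orange) by span class in kb, with the number of genes above the bars. The left panel holds all tested genes and the right those within the very long genes' 10th to 90th percentile of average log2 CPM. Median read level within that band still rises with span. Lower calls go from 5.43% under 5 kb to 21.4% at 200 kb or more on the left and from 6.78% to 24.1% on the right.

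At the edge of the 200 kb limit, the shortest genes inside were LOC113218945 (201838 bases) and LOC413569 (202672 bases, 1813 ± 628 CPM in control and 1623 ± 171 CPM in orco_KO). The longest outside were LOC725803 (199594 bases), at 2349 ± 492 CPM in control and 599 ± 114 CPM in orco_KO, and Abscam (198726 bases), at 7.25 ± 4.14 and 9.28 ± 2.54 CPM.

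Within 100 kb of each other lay 19 pairs of very long genes, with 36 of the 136 genes among them. Both genes had passed in 0 of these pairs and neither in 11; with so few pairs nothing is read from these counts. LOC409257 (linkage group 13, positions 71824 to 482527, reverse strand) and the long noncoding RNA LOC102656601 (linkage group 13, positions 151624 to 543334, forward strand) share most of their spans on opposite strands. LOC409257 gave 314, 328, 334, 569.9 and 604 CPM in control and 153, 156, 188, 118 and 164 CPM in orco_KO and fell 2.76-fold (adjusted p = 0.000470). LOC102656601 gave 26.9, 16.4, 21.1, 22.2 and 27.7 CPM and 17.8, 54.6, 23.3, 27.6 and 48.0 CPM, overlapping groups, with a log2 fold change of 0.58 (adjusted p = 0.209). The counting used strand, so the 2 genes were counted apart.

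Reads in a stretch shared with another gene of the same strand were not counted. This touched 53 of the 136 genes, 6 of them over at least 10% of the span, and LOC551647 (17.7%; log2 fold change -1.13) is the only called gene among those 6. The counts of LOC409024, LOC411344, LOC724356, LOC102656349, LOC550708 and LOC551647 are uncertain for that reason.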

How the data were processed

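Per the labels' protocols, antennal RNA was freed of ribosomal RNA, made into stranded libraries and sequenced on 1 lane; the labels nevertheless name the molecule polyA RNA. The deposited values are raw counts of reads, with no normalization by the authors. STAR 2.7.3a made the alignments (submitters' processing notes). Per the file headers, featureCounts (Subread 2.0.0) counted whole gene spans with strand setting 2, so intron reads count, while reads with several positions or within 2 genes of the same strand do not. The deposited span chose the genes and gives CPM per kb, which is not a level of spliced message. Symbols came from RefSeq's gene table of Amel_HAv3.1, matched by exact coordinates (12256 of 12332 bee genes, all 136 included). Promoter letters and protein lengths were not analysed here.

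Library sizes summed bee genes without 5 virus features. Genes kept by filterByExpr were scaled by TMM and compared with edgeR 4.0.16 (quasi-likelihood test, R 4.3.3), without covariates. On simulated counts the test recovered 89% of 4-fold and 44% of 2-fold changes, and 2.92% of its calls were false. A gene that did not pass may thus still differ. The SE is the log2 fold change over the square root of F. Alternatives were RLE and upper-quartile scaling, scaling on genes under 200 kb, no filter, DESeq2 1.42.0, limma-voom (limma 3.58.1), each library left out, control replicates 6 and 7 left out together, a replicate block, all 145 genes and protein-coding genes only. The classes within a band of average log2 CPM and the nested genes were added after seeing the data.

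The genes, lists and tests were chosen with earlier results of these data known, so no test was made over the set. Genes were named by rule: those with a symbol, the 5 longest, the 10 with the smallest p in each direction, the 5 highest per kb, the 3 nearest to no change, and 2 on each side of the limit. Others were named after their values were seen.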

Additional observations from a re-analysis of the deposited data

Results flagged for a closer look

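In the 35 genes named by rule, each of the 2 groups was examined for a library far from the other 4, which makes 70 groups, and 3 met the limit (a gap to the nearest library above 0.71 of the group's range). Chance flags about 1 in 20 groups. All 3 were orco_KO replicate 5, in each case the highest of its group. Mad stood at 9428 CPM there, with the other orco_KO libraries at 6783–7307 CPM. LOC102656661 stood at 331 CPM, with the others at 231–244 CPM. LOC410893 stood at 144 CPM, with the others at 98.8–110 CPM. Without orco_KO replicate 5, LOC102656661 and LOC410893 still passed the test and Mad still did not.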

How the results depend on the processing

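The number of very long genes that fell lay between 23 and 33 under every alternative, and no called gene changed sign. The number that rose, 18 as reported, was 35 with DESeq2, 32 with upper-quartile scaling, 22 with RLE scaling, 20 with limma-voom, 17 without the filter, 18 with scaling on genes under 200 kb, and 9 without both control replicates 6 and 7, where the median log2 fold change of the set was -0.0602 in place of 0.12. Leaving out 1 library at a time gave 23 to 28 lower, 10 to 30 higher, a median of 0.04 to 0.19 and a difference in share of counts of -0.78 to -0.20 percentage points. The extremes for the genes that rose came without control replicate 6 (10) and control replicate 3 (30). Higher calls over all tested genes were 4.57%, and 8.46% with DESeq2, 6.51% with upper-quartile scaling and 5.28% with RLE scaling. They were 5.61% with limma-voom, 3.54% without the filter and 2.18% without both controls 6 and 7. With 1 library left out they numbered 250 to 684. With the left-out families 31 fell and 18 rose, and with protein-coding genes only 28 and 17.

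Replicate numbers 3 and 5 occur in both groups, but deviations of same-numbered libraries correlated at only 0.0793 and 0.140, with 2 pairs. The labels do not tie equal numbers to a shared batch, and whether they mark one was not settled. On those 4 libraries the replicate block gave 23 lower and 5 higher with a median of -0.0686, and the same libraries without the block, a fit chosen after seeing the data, gave 24 and 1 with a median of -0.0630. With the block these were 16.9% lower and 3.68% higher, against 6.52% and 4.82% of all tested genes. Without it they were 17.6% and 0.735%, against 5.22% and 2.56%. In both fits the share that rose was thus below that of all tested genes, unlike with all 10 libraries. Of the named genes 7 lost their call with the block and 10 without it, on 4 libraries in place of 10. With the block these were LOC102655706 (adjusted p = 0.0593), LOC413289 (0.0611), LOC100578423 (0.0907), LOC727091 (0.287), LOC408822 (0.425), LOC113218945 (0.545) and LOC552397 (0.680). Both fits also reversed some values near 0. With and without the block, LOC411155 was at -0.246 and -0.247, LOC725189 at -0.320 and -0.337, LOC408801 at -0.00941 and -0.000839, LOC410785 at -0.0851 and -0.0922, and LOC550708 at -0.328 and -0.329; with the block Mad was at -0.000341. Without both control replicates 6 and 7, Mad was at -0.0452, LOC725189 -0.162, LOC408944 -0.133, LOC408801 -0.00403, LOC410785 -0.106 and LOC550708 -0.131. LOC724344 was at 0.0278 with DESeq2 and RLE scaling and 0.0187 with upper-quartile scaling. With 1 library left out the values spanned -0.0786 to 0.0847 for LOC724344, -0.0449 to 0.147 for LOC410785, -0.0477 to 0.141 for LOC550708, -0.224 to 0.0749 for LOC551123 and -0.288 to 0.0293 for LOC413569. None of the reversed values passed the test, and the cause of the changes was not tested. The smallest counts limit LOC102656349, with 5 reads in its lowest library; the other limits are the 5 libraries per group and the unknown source of each library.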

Other observations

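The spans of very long genes hold other genes: 96 of the 136 contain at least 1 annotated gene wholly inside their span. On the opposite strand there were 205 such genes, of which 87 were tested, 2 were lower and 12 higher, with a median log2 fold change of 0.52. Over all tested genes 7.98% were lower and 4.57% higher with a median of -0.06, and over all tested long noncoding RNAs 7.25% and 6.57% with a median of 0.31. The genes named here were chosen after their values were seen. Inside the 28 very long genes that fell, 18 opposite-strand genes were tested. The long noncoding RNA LOC113218909, inside LOC410140, fell with its host (4.35 and 1.10 CPM in control and orco_KO, log2 fold change -1.96, adjusted p = 0.00201). LOC102655531, inside LOC724195, rose while its host fell (1.06 and 2.78 CPM, log2 fold change 1.42, adjusted p = 0.0376). LOC410468, inside LOC102655449, rose as its host did with all 10 libraries (81.1 and 162 CPM, adjusted p = 0.00494). The groups of the host LOC102655449 overlapped. It lost its call in 7 of the 10 fits without 1 library and without both control replicates 6 and 7. LOC725233, inside LOC725329, rose from 354 to 595 CPM (adjusted p = 0.00208), where the host did not pass.

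On the same strand 94 genes lie wholly inside 50 of the very long genes, and all 94 have 0 reads in all 10 libraries. The share with 0 reads was 9.76% of the 205 on the opposite strand. It was 6.78% of the 12102 bee genes outside the 94 and the 136, a set that holds most of the 205. The counting leaves out any read that lies in 2 genes of the same strand, so these zeros say nothing of expression. The 94 comprise 38 long noncoding RNAs, 26 protein-coding genes, 18 miRNAs, 7 tRNAs and 5 others. Among them are the odorant receptor gene Or130, inside LOC100576383 (linkage group 4, positions 6010255 to 6013388), and the miRNA genes Mir929 in LOC552844, Mir3049 in LOC410140 and Mir3796 in LOC724468.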
